A study of Mus musculus with 6 samples.

Results

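Plasma protein genes were examined in the liver of 12-month-old C57Bl/6 mice with hepatocellular carcinoma (HCC). The term covers apolipoproteins, serine protease inhibitors of the serpin family, complement, coagulation factors, fibrinogen, acute phase proteins and the major urinary proteins (Mup). The 28 genes described here were selected by gene symbol among 2114 mRNA genes with a symbol in a table deposited by the authors. Apoa1 and the Apobec genes were left out by name, so the apolipoproteins are not complete. Probes are listed in the table because they had already differed between the groups. A member therefore had to differ to be listed. Plasma protein genes outside the table carry no name in the scanner files and were not analysed here, so the counts, medians and directions below describe the listed genes and are no evidence that the class as a whole moved. The members comprised 8 apolipoproteins, 9 serpins, 1 complement gene, 3 coagulation factors and 7 Mup genes, while no fibrinogen, Itih, Saa, Hp or Hpx gene was listed.

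RNA from 3 livers labelled APC fl/fl with HCC and 3 labelled APC +/+ without HCC, called Apcfl/fl and Apc+/+ here, was hybridised to 6 single-colour arrays. The Apcfl/fl mice were homozygous for a floxed allele that is hypomorphic, that is, it reduces the function of Apc, a negative regulator of Wnt/β-catenin signalling, and the methods name no Cre for these mice. No agent was given to either group according to the sources used here, and the sex of the mice is not given. Liver tissue was taken, so tumour and other cells are mixed, and in such bulk samples fewer cells of a type and less RNA per cell cannot be told apart. The difference between replicates 1 and 2 of Apcfl/fl was smaller than the scanner's own error, since the mean chi-square over probes was 0.774, whereas it was 14.9 and 15.1 between them and replicate 3. The close pair was counted as 1 sample, which left 2 Apcfl/fl and 3 Apc+/+ samples. The same measure was 1.99 between replicates 2 and 3 of Apc+/+, against 6.37 and 7.56 with replicate 1, and these arrays were kept apart because it exceeded the scanner's error. Apc+/+ replicate 2 had the smallest percentage of probes well above background, 50.8%, which lay between 70.7% and 82.8% on the other arrays. The brightest negative-control probe averaged 5.50 in normalised log2 units, and values near or below it are within non-specific signal.

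Hepatocytes make most of the proteins of blood plasma. Apolipoproteins coat lipoprotein particles and direct lipases and receptors to them, secreted serpins trap proteases of clotting and inflammation, coagulation factors form the clotting cascade, and complement lectins recognise microbial sugars. Mup proteins are small lipocalins that carry pheromones, are secreted by the mouse liver into blood and pass into urine, and are known to depend on growth hormone and to be higher in males. A few members bear a family name without being plasma proteins. Serpinb6a, Serpinb6b and Serpinb9c belong to the intracellular clade B of serpins, and Apool is a protein of the mitochondrial inner membrane. The apolipoprotein L family, here Apol6, Apol7b, Apol9a and Apol9b, also has members that act inside cells, so these need not be plasma proteins either.

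Of the 28 members, 23 were lower and 5 higher in Apcfl/fl HCC, with a median log2 change of -1.42. All tested probes had a median of 0.06, and the mRNA probes of the authors' table had a median of 1.05 with 57.3% of them higher. The adjusted threshold, a limma adjusted p below 0.05 with a fold of at least 2, was passed by 7 members. Apol9a and Serpinb6b rose, and Apoc1, Apoc4, Serpina3i, Mup2 and Mup3 fell. Over all 45640 tested probes 1.03% were called higher and 0.896% lower. The threshold of the study's methods, which takes a p up to 0.05 without adjustment and a 2-fold change, was passed by 26 members, against 11.2% of all tested probes. The p used for it here is that of limma. With a t-test on the same samples, 18 members and 3517 of the 45640 tested probes passed it. With the 6 arrays taken as 6 samples 17 members passed the adjusted threshold, against 7.54%. In all 28 members the 3 arrays of one group lay on one side of the other 3, which was so for 33.8% of all tested probes. Because the table was selected on this contrast, nothing is read from these shares. Leaving out a single Apc+/+ array, whichever it was, removed all 7 calls by limma, while 21 members still passed the methods' threshold. Of all tested probes, 0, 1 and 0 were called without Apc+/+ replicates 1, 2 and 3, in place of 878. Past the methods' threshold were 5749, 4540 and 4326 of all tested probes. The arrays were also split by the leading character of the scanner's barcode. It is taken here as the slide row, which the sample labels do not give, and what it stands for was not checked. By this, row 1 held the 3 Apcfl/fl arrays together with Apc+/+ replicate 1, and row 2 held the other Apc+/+ arrays. With the row as a block 0 members were called by limma and 17 passed the methods' threshold, against 0 and 3964 of all tested probes. Averaging the close Apc+/+ replicates 2 and 3 as well left 0 members called by limma and 21 past the methods' threshold. Of all tested probes it left 0 and 4534. With scaling to the 75th percentile 4 members were called, 3 higher and 1 lower, and 728 of all tested probes.

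**Figure D1:**
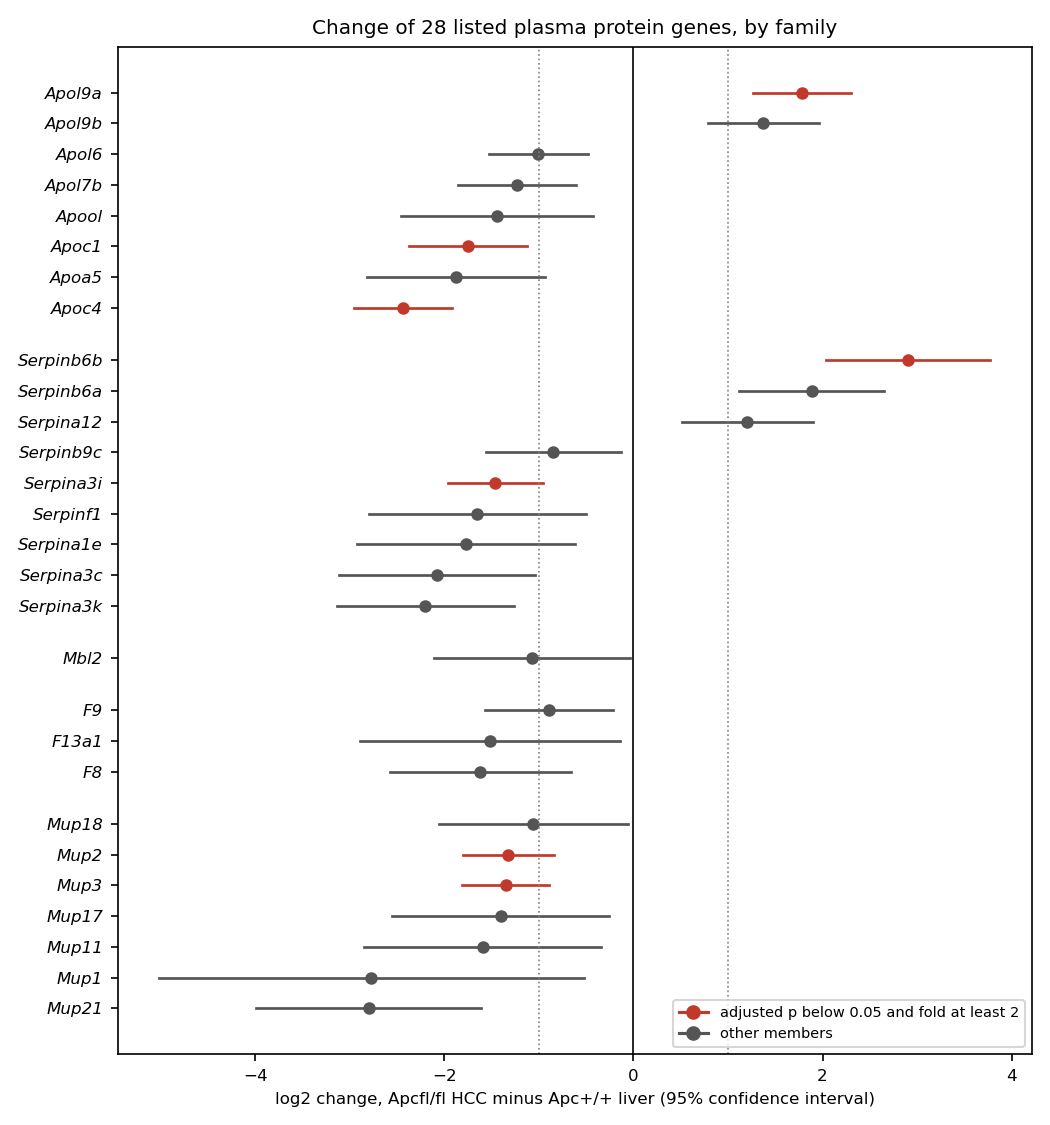
The log2 change of each of the 28 listed genes, Apcfl/fl HCC minus Apc+/+ liver, is shown as a point with its 95% confidence interval from limma, grouped by family, with dotted lines at a 2-fold change. The 7 genes past the adjusted threshold are in red, and 5 genes lie to the right of 0.

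Among the apolipoproteins, the triglyceride-related members of plasma lipoproteins were lower and the Apol9 pair was higher. Apoc4, a minor apolipoprotein of very low density lipoprotein, read 12.09, 12.22 and 12.32 on the normalised log2 scale in Apcfl/fl replicates 1 to 3 and 14.52, 14.84 and 14.67 in Apc+/+ replicates 1 to 3. These groups lay far apart for their spread. Apoc4 fell by 2.44 log2 units (SE 0.20, adjusted p = 0.0194), which is 5.42-fold with a 95% confidence interval of 3.78 to 7.77, and it had the lowest adjusted p of the members. Its neighbour Apoc1, an activator of lecithin-cholesterol acyltransferase and an inhibitor of lipoprotein uptake, read 10.42, 10.47 and 10.21 in Apcfl/fl and 11.82, 12.36 and 12.06 in Apc+/+. It fell by 1.75 (SE 0.25, adjusted p = 0.0469). Apoa5, which promotes lipolysis of plasma triglyceride by lipoprotein lipase, read 12.28, 12.30 and 13.30 against 14.44, 14.94 and 14.64. Here Apcfl/fl replicate 3 lay closer to the Apc+/+ arrays than replicates 1 and 2 did. The change of Apoa5 was -1.88 (SE 0.37) and did not pass with 5 samples (adjusted p = 0.0810), whereas it passed with 6 arrays (adjusted p = 0.0182).

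Apol genes encode apolipoprotein L proteins, a family with members that act inside cells and in host defence. Apol9a and Apol9b are closely related genes of 1 cluster, known to respond to interferon. Apol9a read 9.78, 9.90 and 9.57 in Apcfl/fl and 7.83, 7.89 and 8.05 in Apc+/+. It rose by 1.78 (SE 0.20, adjusted p = 0.0332), and all 3 Apcfl/fl arrays exceeded all Apc+/+ arrays by well over their spread. A dimmer Apol9a probe had a change of 1.60 and did not pass (adjusted p = 0.0670). The brighter Apol9b probe read 17.02 in every Apcfl/fl replicate and 15.36, 15.72 and 15.87 in Apc+/+, a change of 1.37 (adjusted p = 0.0611). A dimmer Apol9b probe, from 8.73 to 9.34 in Apcfl/fl and from 7.37 to 7.49 in Apc+/+, had a change of 1.57 (adjusted p = 0.0526). Both genes are thus close in change, and with such similar transcripts the probes may read either of them. Apol7b lay lower, with a change of -1.24 (adjusted p = 0.0818). Apol6 had a change of -1.005 (adjusted p = 0.0870), with an Apcfl/fl mean of 4.93, below the brightest negative control, and an Apc+/+ mean of 5.93, close to it. With normexp background correction its change was -0.42. Apool had a change of -1.45 (adjusted p = 0.150).

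The promoters of the Apol9 pair are shown because both genes were higher and their start regions are nearly the same. Each window runs from 250 bases before to 50 bases after an annotated start in RefSeq, build GRCm38.p6. They are chr15:77411031-77411330 on the minus strand for Apol9a and chr15:77728822-77729121 on the plus strand for Apol9b. Capitals mark matches, on the reverse strand, to the interferon-stimulated response element (ISRE) searched as GAAANNGAAA on both strands.
Apol9a: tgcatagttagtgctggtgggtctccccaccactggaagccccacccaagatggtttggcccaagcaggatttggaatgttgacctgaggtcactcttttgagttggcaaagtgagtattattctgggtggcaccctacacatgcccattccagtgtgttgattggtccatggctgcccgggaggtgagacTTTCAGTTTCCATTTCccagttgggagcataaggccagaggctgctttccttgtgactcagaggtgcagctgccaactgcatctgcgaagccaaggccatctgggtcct
Apol9b: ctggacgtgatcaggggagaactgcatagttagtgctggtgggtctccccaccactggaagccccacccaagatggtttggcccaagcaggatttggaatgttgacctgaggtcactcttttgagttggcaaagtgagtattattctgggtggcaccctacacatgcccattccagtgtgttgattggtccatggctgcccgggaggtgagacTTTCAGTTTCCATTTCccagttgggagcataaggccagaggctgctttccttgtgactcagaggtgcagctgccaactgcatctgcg
Both windows hold an identical run of 278 bases. The capitals in each are a pair of overlapping matches that together spell TTTCAGTTTCCATTTC, a run found in 7 of 32851 mouse promoter windows of the same length. Those 7 include all annotated windows of Apol9a and Apol9b, from which the run was taken. At least 1 ISRE match was present in 3.44% of all such windows. A promoter was available for 24 of the 28 members, not for Apoc1, Apol6, Serpina3k and Mup1. An ISRE match was found in 3 of the 5 higher members, Apol9a, Apol9b and Serpinb6a, the last in 1 of its 2 windows, and in 0 of 19 lower members. A short motif of HNF1, a hepatocyte transcription factor, searched as GTTAAT on both strands, was present in Serpina1e and Serpina3c and in 7.1% of all windows. The STAT motif TTCNNNGAA, which reads the same pattern on both strands, was present in 4 of the 24 members and in 8.3% of all windows. A member counts here if any of its windows holds the motif, and the 24 members have 30 windows, of which 5 held an ISRE match, 2 the HNF1 motif and 4 the STAT motif. These are matches of letters and not sites, and windows of a pair of neighbouring copies are not independent.

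Of the 9 serpins, 6 were lower and 3 higher, and 1 in each direction passed the adjusted threshold. Serpina3k, an inhibitor of tissue kallikrein, read 11.34, 11.44 and 10.84 in Apcfl/fl and 12.76, 13.70 and 13.48 in Apc+/+, a change of -2.20 (SE 0.37, adjusted p = 0.0605). Serpina3c, another secreted inhibitor of the same cluster, read 11.88, 11.99 and 13.19 against 14.77, 14.50 and 14.65, a change of -2.08 (SE 0.41, adjusted p = 0.0805). Apcfl/fl replicate 3 was the nearer to Apc+/+ for Serpina3c and the farther for Serpina3k. The third of this cluster, Serpina3i, read 5.80, 5.71 and 5.97 against 7.43, 7.33 and 7.22. It fell by 1.46 (SE 0.20, adjusted p = 0.0427), with the Apcfl/fl values only just above the brightest negative control, so that the size of the change is uncertain.

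Serpina1e, one of the mouse copies of alpha-1-antitrypsin, the main inhibitor of neutrophil elastase in plasma, read 16.18, 16.18 and 14.90 in Apcfl/fl and 16.91, 17.50 and 17.53 in Apc+/+. Its change was -1.77 (SE 0.45, adjusted p = 0.130), with replicate 3 the lowest array. Serpinf1, or pigment epithelium-derived factor, an inhibitor of angiogenesis that does not inhibit proteases, had a like pattern, from 14.75 to 16.08 in Apcfl/fl and from 16.69 to 17.24 in Apc+/+ (change -1.65, adjusted p = 0.146). Serpina12, or vaspin, a secreted adipokine, was the secreted serpin in the opposite direction. It ranged from 14.59 to 15.15 in Apcfl/fl and from 13.44 to 13.92 in Apc+/+ (change 1.20, adjusted p = 0.105).

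Among the clade B serpins, Serpinb6b showed the widest difference. This intracellular inhibitor, one of several mouse relatives of human SERPINB6, read 8.92, 8.97 and 8.02 in Apcfl/fl and 5.65, 5.34 and 5.74 in Apc+/+, where it was well above background on 2 of the 3 arrays. It rose by 2.91 (SE 0.34, adjusted p = 0.0349), and the Apc+/+ values lie at the level of the brightest negative control. The related Serpinb6a read 7.83, 8.04 and 7.11 against 5.51, 5.67 and 5.72, a change of 1.89 (SE 0.30, adjusted p = 0.0565). Serpinb9c, a relative of the granzyme B inhibitor Serpinb9, lay in the other direction, with a change of -0.85, or 1.80-fold (adjusted p = 0.208). With normexp background correction the change of Serpinb6b was 1.94, that of Serpinb6a 1.12 and that of Serpina3i -0.87.

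**Figure D2:**
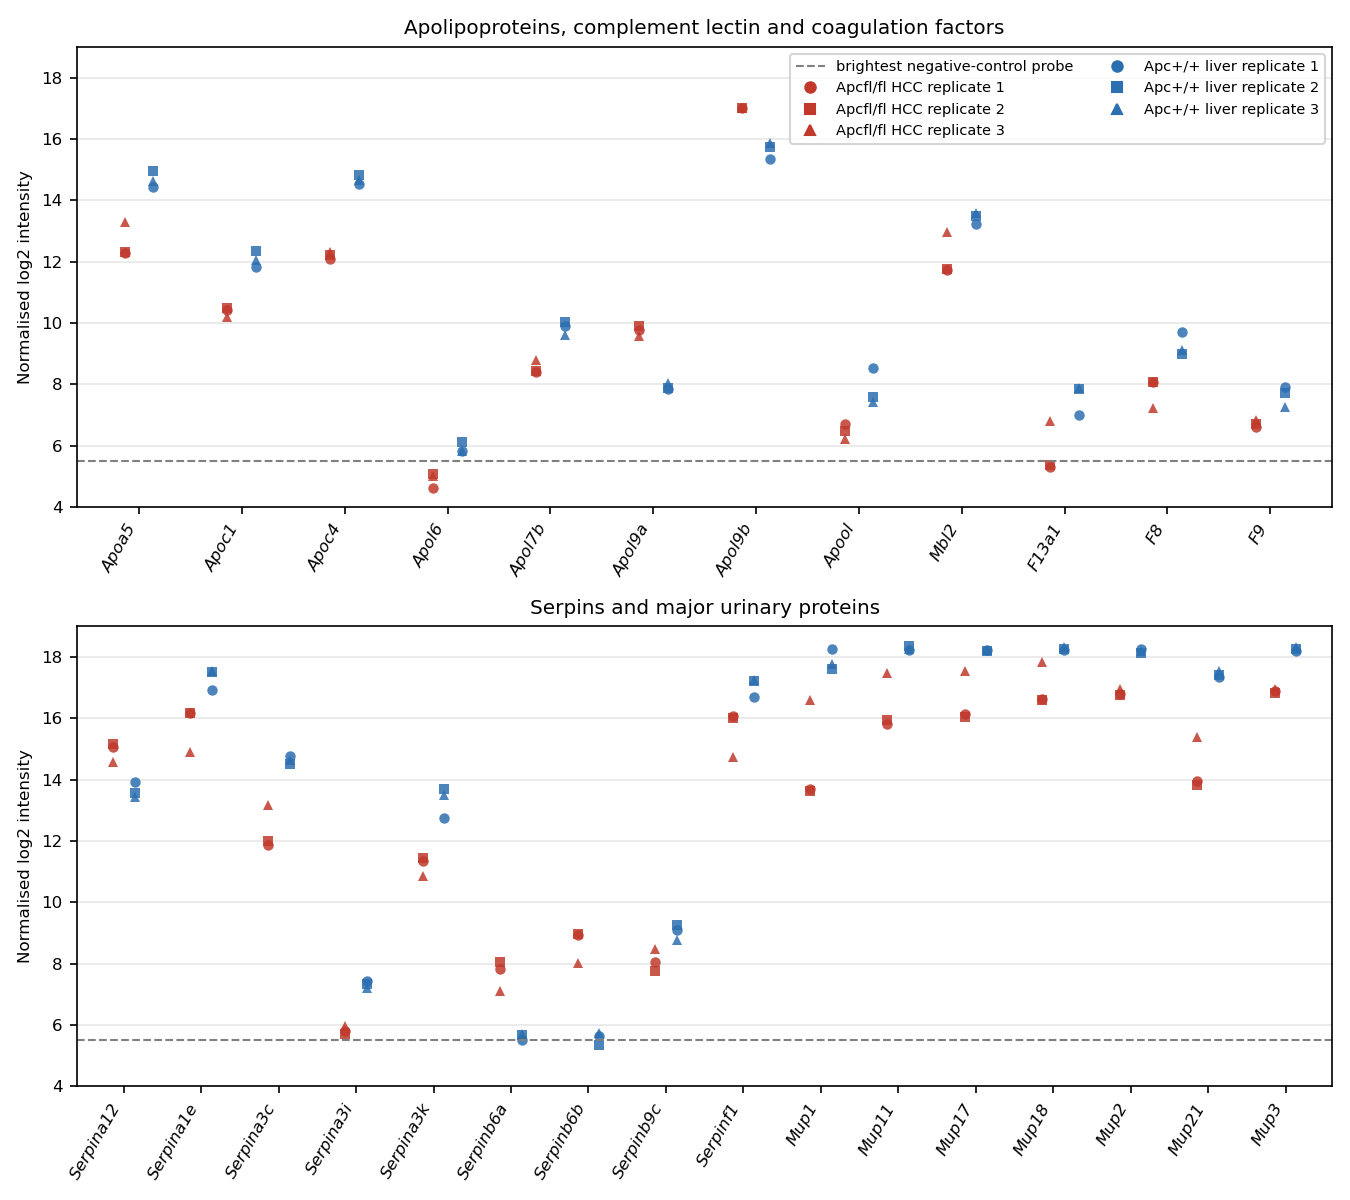
Normalised log2 intensity of the 28 genes on each of the 6 arrays, with Apcfl/fl HCC in red, Apc+/+ liver in blue and a marker shape for each replicate, and a dashed line at the mean of the brightest negative-control probe, 5.50. No gene has overlapping groups, and Apcfl/fl replicates 1 and 2 coincide for most genes while replicate 3 lies apart, as for Mup1.

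Complement was represented by Mbl2 alone. Mbl2 encodes mannose-binding lectin C, which binds microbial sugars and starts the lectin pathway. It read 11.72, 11.77 and 12.98 in Apcfl/fl and 13.24, 13.49 and 13.58 in Apc+/+. Its change was -1.08 (SE 0.41, adjusted p = 0.259), and replicate 3 lay close to the lowest Apc+/+ array.

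The coagulation factors were lower as well, with none past the adjusted threshold by limma. Factor VIII, encoded by F8, is the cofactor of factor IX and is made chiefly by endothelial cells. It read 8.08, 8.06 and 7.22 in Apcfl/fl and 9.72, 8.98 and 9.10 in Apc+/+ (change -1.62, SE 0.38, adjusted p = 0.110), and a dimmer F8 probe had a change of -1.50 (adjusted p = 0.122). Pecam1, the 1 of 6 endothelial markers listed in the table, had a change of -1.46 (adjusted p = 0.0924). Its part in the F8 difference was not tested. F13a1, the catalytic subunit of the clot-stabilising factor XIII, is made by macrophages and megakaryocytes. It read 5.30, 5.36 and 6.79 against 6.998, 7.85 and 7.89 (change -1.52, SE 0.54, adjusted p = 0.236), so replicates 1 and 2 were at the level of the brightest negative control and replicate 3 was near Apc+/+ replicate 1. With normexp its change was -0.90. Of 8 macrophage and Kupffer cell markers the table listed Adgre1, with a change of 1.64 (adjusted p = 0.170), and Cd74, with a change of 1.57 (adjusted p = 0.225), both opposite in direction to F13a1, and the relation was not tested. F9, the vitamin K-dependent protease made by hepatocytes and mutated in haemophilia B, read 6.60, 6.71 and 6.84 against 7.92, 7.73 and 7.27 (change -0.90, adjusted p = 0.173).

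All 7 Mup members were lower in Apcfl/fl HCC, and Mup2 and Mup3 passed the adjusted threshold. Mup3 read 16.87, 16.84 and 16.96 in Apcfl/fl and 18.20, 18.26 and 18.31 in Apc+/+, and fell by 1.35 (SE 0.18, adjusted p = 0.0427). Mup2 read 16.79, 16.75 and 16.96 against 18.25, 18.12 and 18.20, and fell by 1.32 (SE 0.19, adjusted p = 0.0478). For these genes the 3 Apcfl/fl arrays were alike.

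The largest differences were those of Mup21 and Mup1, without a call. Mup21 read 13.97, 13.82 and 15.39 in Apcfl/fl and 17.35, 17.41 and 17.56 in Apc+/+, a change of -2.80 (SE 0.47, adjusted p = 0.0605). Mup1 read 13.68, 13.63 and 16.58 against 18.27, 17.61 and 17.78, a change of -2.77 (SE 0.88, adjusted p = 0.195) that is widely uncertain because replicate 3 lay 2.93 above the mean of replicates 1 and 2. Mup11 read 15.80, 15.95 and 17.47 against 18.21, 18.36 and 18.25, a change of -1.60 (SE 0.49, adjusted p = 0.186). For Mup17 and Mup18, with changes of -1.40 and -1.06 (adjusted p = 0.198 and 0.251), the Apc+/+ arrays lay between 18.20 and 18.33 and replicate 3 of Apcfl/fl was again the nearest to them, at 17.53 and 17.83.

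These probes were among the brightest on the arrays. Of 59631 probes, Mup18 ranked 32nd or higher on each Apc+/+ array, and Mup3, Mup11 and Mup17 ranked 37th or higher. No spot was saturated. Quantile normalisation sets a value by rank, so a narrow spread shows that a probe kept its rank across arrays. The SD of the Apc+/+ values was 0.010 for Mup17 and 0.044 for Mup18, but 0.34 for Mup1. With scaling to the 75th percentile the 7 changes lay between -2.44 and -0.77, and Mup2 and Mup3 no longer passed.

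The mouse genome annotation holds 22 protein-coding Mup genes with very similar sequences, and a probe may read several of them. The promoters of Mup2 and Mup3, which passed the threshold, and of Mup21, with the largest difference, are shown to compare the copies. They come from RefSeq, build GRCm38.p6, all on the minus strand, at chr4:60139807-60140106 for Mup2, chr4:62087268-62087567 for Mup3 and chr4:62150792-62151091 for Mup21. Capitals mark the longest run that all 6 Mup members with a promoter share.
Mup2: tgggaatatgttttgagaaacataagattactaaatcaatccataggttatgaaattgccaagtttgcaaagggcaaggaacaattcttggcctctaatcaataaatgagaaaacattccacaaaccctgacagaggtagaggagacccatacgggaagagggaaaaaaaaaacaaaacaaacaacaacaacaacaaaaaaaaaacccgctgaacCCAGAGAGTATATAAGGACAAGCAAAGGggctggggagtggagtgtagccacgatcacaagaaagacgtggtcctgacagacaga
Mup3: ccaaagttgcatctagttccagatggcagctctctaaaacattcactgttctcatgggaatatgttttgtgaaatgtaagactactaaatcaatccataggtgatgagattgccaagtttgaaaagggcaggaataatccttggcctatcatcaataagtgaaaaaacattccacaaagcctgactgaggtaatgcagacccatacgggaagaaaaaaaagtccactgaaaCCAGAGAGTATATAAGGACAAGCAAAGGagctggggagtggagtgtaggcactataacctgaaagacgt
Mup21: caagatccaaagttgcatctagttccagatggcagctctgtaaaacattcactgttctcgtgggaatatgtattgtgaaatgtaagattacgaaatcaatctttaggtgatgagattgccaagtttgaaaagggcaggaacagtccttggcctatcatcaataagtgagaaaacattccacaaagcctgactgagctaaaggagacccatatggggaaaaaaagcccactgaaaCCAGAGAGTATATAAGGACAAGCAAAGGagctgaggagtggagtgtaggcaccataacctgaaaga
The shared run has 28 bases and contains a TATA-like stretch. It was found in 10 of 32851 promoter windows, 0.0304%, and these belonged to 10 of the 14 Mup genes in the promoter table. Over the whole window the identity between pairs of the 6 members ranged from 59.2% to 96.1%. Mup3 and Mup21 were 90.5% identical, although their changes were -1.35 and -2.80. None of the 6 held a match to the HNF1 motif, the STAT motif or the ISRE as spelled above.

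The Apcfl/fl arrays did not agree in how far the members lay from Apc+/+. For all 7 Mup genes replicate 3 was nearer to the Apc+/+ mean than the mean of replicates 1 and 2, by a median of 1.44 on the log2 scale, and by only 0.19 for Mup2 and 0.11 for Mup3. Replicate 3 was the nearer for 21 of the 28 members, or 75%, against 50.5% of all tested probes and 61.9% of the mRNA probes of the authors' table. The 21 include the 7 Mup genes, whose probes may read several copies and are not independent. Among apolipoproteins the share was 62.5% and among serpins 66.7%, near that of the table's mRNA probes. Serpina1e and Serpinf1 were among the exceptions, with log2 differences of -1.27 and -1.29 between replicate 3 and the mean of replicates 1 and 2. Mbl2, F13a1, Apoa5 and Serpina3c had replicate 3 on the same side as the Mup genes, and Serpina3k had it on the side of Serpina1e and Serpinf1. The median absolute difference between replicate 3 and the mean of replicates 1 and 2 was 0.699 for members and 0.351 for all tested probes. For the mRNA probes of the authors' table it was 0.611, not far from that of the members. Without replicate 3, which leaves 1 Apcfl/fl sample whose spread is taken from Apc+/+, 4 members were called, only 1 of them among the 7 above.

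**Figure D3:**
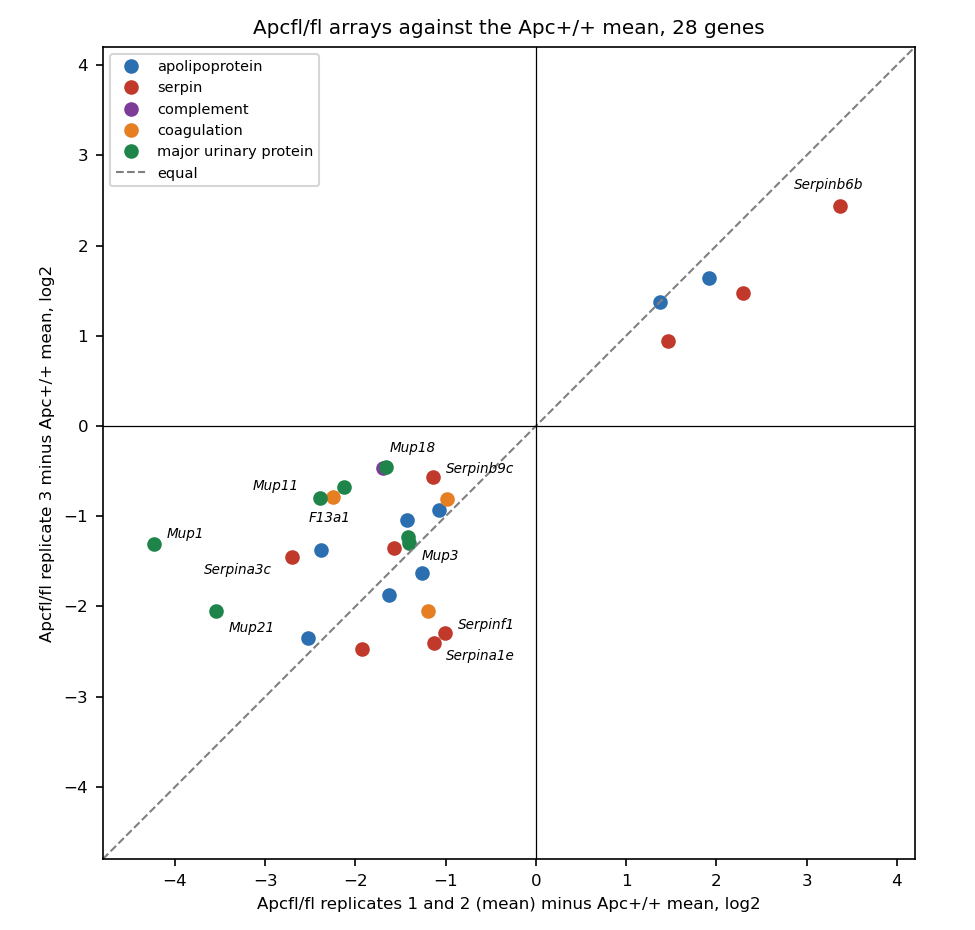
Each point is 1 of the 28 genes, with the mean of Apcfl/fl replicates 1 and 2 minus the Apc+/+ mean on the horizontal axis and Apcfl/fl replicate 3 minus the same mean on the vertical axis, both on the log2 scale, coloured by family. Points on the dashed line had equal differences, and the Mup points lie above it, from 0.11 for Mup3 to 2.93 for Mup1.

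Several members are neighbours in the genome, in the order of RefSeq protein-coding genes. The 7 Mup members lie in 1 cluster on chromosome 4 with 0 to 7 coding genes between neighbouring members, and all were lower. On chromosome 7 Apoc4 and Apoc1 are adjacent, and both fell. The chromosome 12 cluster of secreted serpins was split, with Serpina12 higher between Serpina1e and Serpina3c, which were lower, with 2 and 3 coding genes between them. On chromosome 13 Serpinb6b and Serpinb6a were higher, with the lower Serpinb9c between them. On chromosome 15 Apol9a was higher and the adjacent Apol7b lower, and Apol9b, with 6 coding genes between it and Apol7b, was higher again. Probes of neighbouring family members can share signal, so agreement within a cluster is not independent.

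**Figure D4:**
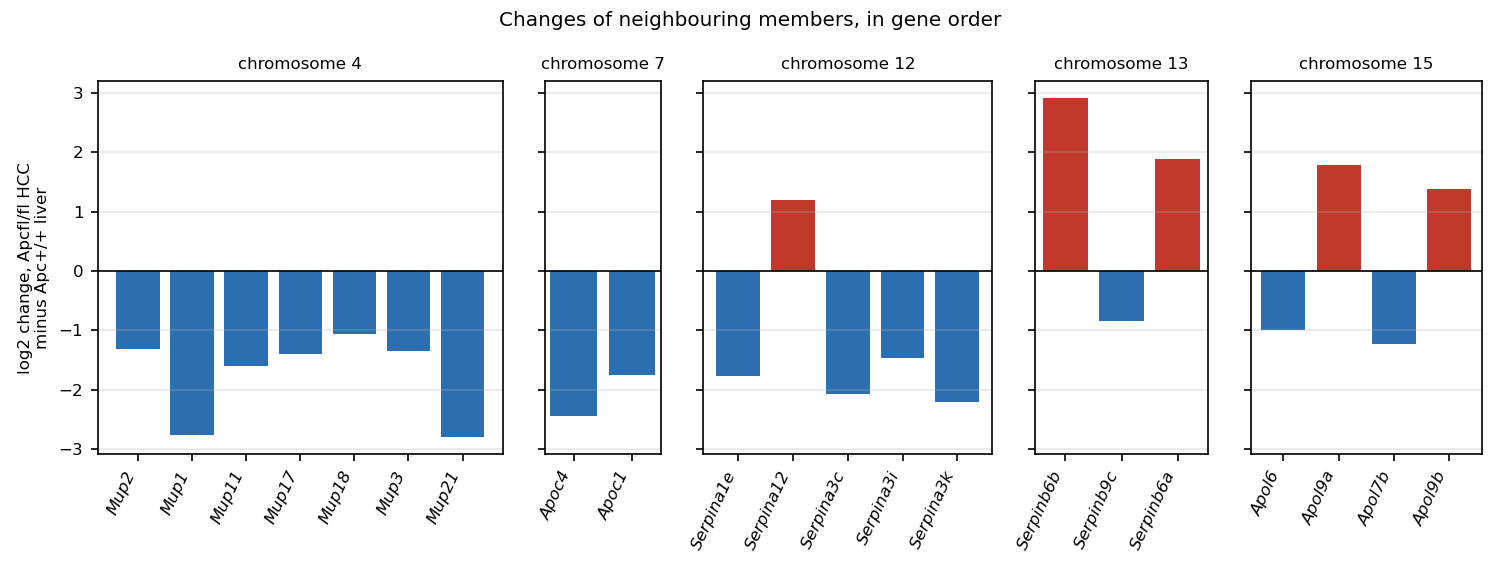
Bars give the log2 change, Apcfl/fl HCC minus Apc+/+ liver, of members that lie within 10 coding genes of another member, in genome order on 5 chromosomes, red for higher and blue for lower. The 7 Mup genes on chromosome 4 and the Apoc pair on chromosome 7 are lower throughout, and chromosomes 12, 13 and 15 hold both directions.

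A list of 76 further secreted liver proteins, receptors, lipid enzymes and acute phase regulators had 14 genes in the authors' table, of which 5 were higher and 9 lower, with a median change of -1.46. Past the adjusted threshold were 2 higher and 2 lower genes, against 1.03% and 0.896% of all tested probes. These genes too had to differ to be listed, so nothing is read from the counts. Orm2, or alpha-1-acid glycoprotein 2, an acute phase carrier protein, read 15.72, 15.90 and 16.28 in Apcfl/fl and 14.37, 14.26 and 14.27 in Apc+/+ and rose by 1.74 (adjusted p = 0.0398). F2rl1, the protease-activated receptor PAR2, rose by 3.99 (adjusted p = 0.0379). Agt, the precursor of angiotensin, fell by 1.45 (adjusted p = 0.0386), and Vldlr, the very low density lipoprotein receptor, fell by 2.17 (adjusted p = 0.0415) to an Apcfl/fl mean of 4.85, below the brightest negative control.

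The other 10 genes of this list passed the methods' threshold, as did 11.2% of all tested probes, and not the adjusted one. They are given as values. The acute phase gene Orm3 read 11.95, 11.92 and 9.97 in Apcfl/fl and 8.45, 5.90 and 6.02 in Apc+/+, a change of 4.16 whose SE was 1.01 (adjusted p = 0.120), and Socs3, a brake on cytokine signalling, had a change of 1.46 (adjusted p = 0.0954). The pentraxins lay lower, Apcs (serum amyloid P) with a change of -2.33 (adjusted p = 0.0580) and Crp with -1.23 (adjusted p = 0.0806). Hamp, the gene of the iron hormone hepcidin, had a change of -2.24 (adjusted p = 0.0595), and the related gene Hamp2 one of -2.02 (adjusted p = 0.111). The Stat3 probe, for a transcription factor of the acute phase, had a change of -1.51 (adjusted p = 0.119). Of the lipid genes, Lipc (hepatic lipase) had a change of -1.55 (adjusted p = 0.0580) and Pltp (phospholipid transfer protein) of -1.47 (adjusted p = 0.102). Cpb2, a carboxypeptidase that slows clot lysis, had a change of 1.46 (adjusted p = 0.132).

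**Figure D5:**
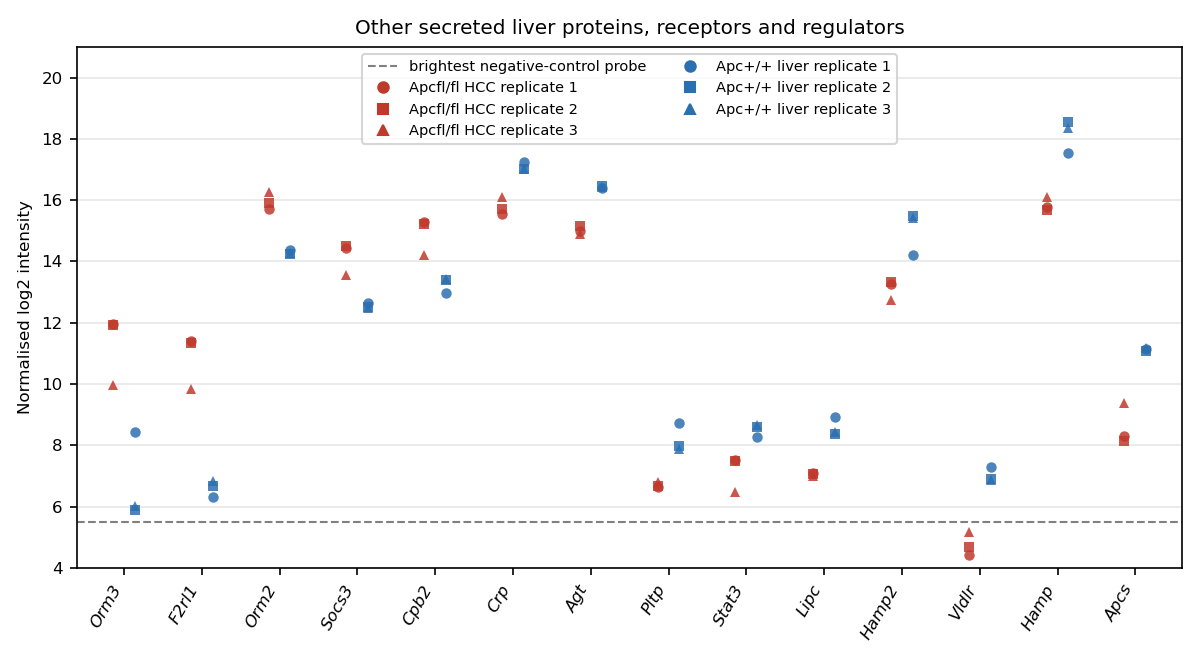
Normalised log2 intensity of the 14 listed genes of the second list on each array, ordered from the highest to the lowest change, with Apcfl/fl HCC in red and Apc+/+ liver in blue. Orm3, with Apcfl/fl arrays from 9.97 to 11.95, has the widest spread within the groups.

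Markers of other cell types could be read only where the table lists them. It held 0 of 7 hepatocyte, 0 of 6 neutrophil, 0 of 8 lymphocyte, 0 of 8 stellate cell and 0 of 4 erythroid markers, so the labelled tissue could not be checked by its hepatocyte markers, and shifts in cell makeup were not tested. The 1 of 6 cholangiocyte markers, Spp1, which tumour cells and macrophages also make, rose by 5.004 at its brightest probe (adjusted p = 0.0351). Its dimmest probe had a change of 1.87 (adjusted p = 0.0536), and its remaining probes had changes from 3.98 to 4.85. Listed liver genes that are known to differ between male and female mice were chosen after their values were seen and are given beside the Mup genes. Of the male-biased genes Cyp4a12a and Cyp4a12b had changes of 2.36 and 3.31 (adjusted p = 0.141 and 0.0651) and Slco1a1 of -2.02 (adjusted p = 0.0790). Of the female-biased genes Cyp2a4 rose by 4.30 (adjusted p = 0.0405), and Cyp3a41a had a change of -1.75 (adjusted p = 0.0967). The part of sex in the Mup differences was not tested.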

How the data were processed

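Liver RNA was depleted of rRNA, labelled with Cy3 by random priming and hybridised to the Arraystar mouse lncRNA array. The authors extracted the scans with Agilent Feature Extraction 11.0.1.1, and the deposited files give the processed intensity of each spot after background subtraction. A table deposited by the authors gives log2 values, quantile normalised, of 4197 distinct probes selected between the groups (4738 lines). It fixed the members and, for genes with several probes, the brightest one. RefSeq (GRCm38.p6) gave symbols, and 41 of the table's 2280 mRNA probes matched none.

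Intensities of the 6 arrays were taken to log2, averaged per probe over unflagged spots (59631 probes) and quantile normalised. A probe was tested if well above background on at least 3 of 6 arrays, by at least 50% of its spots (45640 probes). Apcfl/fl replicates 1 and 2 were averaged because their mean chi-square against the scanner's error over 29685 probes was under 1. limma 3.58.1 in R 4.3.3 (eBayes after lmFit, two-sided tests without covariates) gave changes, standard errors and Benjamini-Hochberg adjusted p-values over all tested probes. The steps were tested on simulated data. Precision is limited by the number of arrays.

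Every member is named. Values of each array are given for members past the adjusted threshold and for the 3 largest changes of a family. Members and lists were chosen with earlier results of these data known. The scanner files hold no mean signal, so normexp (offset 50) was run on the median signal and background. Levels from the authors' table differed by at most 0.652 on the log2 scale, and the 28 changes had the same sign in both.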

Additional observations from a re-analysis of the deposited data

How the results depend on the processing

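All 28 members kept their direction in every alternative that tested them, 27 with the filter of well above background on all 6 arrays, which drops Serpinb6b. The number past the adjusted threshold, 7 of 28 members and 878 of all tested probes, varied more. It was 11 and 1651 with normexp background correction, 14 and 1966 with the stricter filter, 1 and 277 with no filter, 17 and 3441 with 6 arrays as 6 samples, and 13 and 1900 with eBayes trend and robust. With scaling to the 75th percentile 4 members passed, 3 higher and 1 lower in place of 2 and 5, and 728 of all tested probes did. By limma it was 0 and 0 with Apc+/+ replicates 2 and 3 averaged too, where 21 members and 4534 probes passed the methods' threshold. It was also 0 and 0 with the inferred slide row as a block, where 17 members and 3964 probes did. As inferred from the barcode, row 1 held the Apcfl/fl arrays and Apc+/+ replicate 1, and row 2 held Apc+/+ arrays alone. The block therefore rests on that single Apc+/+ array. A t-test on the same 5 samples left 0 members and 3 probes after Benjamini-Hochberg adjustment, with 18 members past the methods' threshold. The median change of the members, -1.42, was -1.24 with normexp, -1.24 with the 75th percentile and -1.33 with the row block. When single arrays were left out, the members called ranged from 0 to 7 and all probes called from 0 to 973. The members past the methods' threshold ranged from 21 to 26 and the median from -1.46 to -1.38. The counts of 0 members came without Apc+/+ replicate 1, 2 or 3. Without Apcfl/fl replicate 3, which leaves 1 Apcfl/fl sample, the median change of the members was -1.43. The cause of these shifts was not tested. Deviations from the group means were little correlated between Apcfl/fl and Apc+/+ arrays of the same number (r = 0.0587, -0.0686 and 0.0356). Because Apcfl/fl replicates 1 and 2 were nearly alike, this check cannot decide whether the numbers pair samples. With 6 arrays and the replicate block 6 members passed. Low signal limits Apol6, near or below the brightest negative control in both groups, and F13a1, Serpina3i, Serpinb6a and Serpinb6b, near or below it in 1 group.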
